A study of Mus musculus with 13 samples.

Results

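The core circadian clock loop comprises the activators Clock, Arntl and Npas2 and the genes of its repressing arm, Per1, Per2, Per3, Cry1, Cry2, Nr1d1 and Nr1d2. All probe sets whose single gene symbol was one of these 10 genes were taken, which gave 23 of the 45037 non-control probe sets tested. The 10 genes were all represented, 4 of them by 1 probe set and 6 by more. Expression was measured on arrays in brain hemispheres of 13 male C3HeB/FeJ mice, an inbred strain. Creatine, which was added to the pellets at 1% for 6 months, was given to 6 mice, and 7 untreated mice ate pellets of equal caloric content with none added. Feeding began at an age of 10 to 12 weeks in both groups, and all mice lived under a regular light/dark cycle. The hour at which tissue was taken is not given in the sources used here, nor is the share of each hemisphere that was cerebellum or other regions. C3H strains are known to lose their rod photoreceptors through a Pde6b mutation, which both groups would share.

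In the clock of mammalian cells, the proteins of Clock or Npas2 pair with that of Arntl (BMAL1) and switch on genes through the E-box, a short DNA motif. Among these genes are the Per and Cry genes, whose proteins return to the nucleus and inhibit the activators, and Nr1d1 and Nr1d2 (REV-ERBs), nuclear receptors that repress Arntl. In rhythmic tissues Arntl RNA therefore peaks at a time of day when RNA of Nr1d1 and the Per genes is low, and the suprachiasmatic nucleus of the hypothalamus sets the phase of clocks in the rest of the brain.

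Promoters of 4 members are shown. Per3, Cry1 and Per1 carry an E-box or a D-box, and Arntl has neither in the 250 bases before the start. Sequences are RefSeq's on GRCm38.p6, read 5′ to 3′ on the gene's strand and ending at the base before the transcription start. Capitals mark the E-box CACGTG in Per1 and Cry1 and the D-box TTATGTAA in Per3. In Cry1 they also mark AACGTG, which is an E-box variant read from the other strand. Per3 is shown from chr4:151044666-151044915 (minus strand), Cry1 from chr10:85185055-85185304 (minus strand), Per1 from chr11:69098699-69098948 (plus strand) and Arntl from chr7:113207215-113207464 (plus strand).
Per3: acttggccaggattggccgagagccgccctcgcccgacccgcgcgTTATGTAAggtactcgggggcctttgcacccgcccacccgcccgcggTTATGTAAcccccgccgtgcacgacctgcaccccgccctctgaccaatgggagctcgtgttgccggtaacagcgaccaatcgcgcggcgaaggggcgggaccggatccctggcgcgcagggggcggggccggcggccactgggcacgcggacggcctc
Cry1: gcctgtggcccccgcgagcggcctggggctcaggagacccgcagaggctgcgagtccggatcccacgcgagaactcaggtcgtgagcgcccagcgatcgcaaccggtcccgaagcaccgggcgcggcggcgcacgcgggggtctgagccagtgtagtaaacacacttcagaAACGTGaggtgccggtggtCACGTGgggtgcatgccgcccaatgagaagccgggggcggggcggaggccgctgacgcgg
Per1: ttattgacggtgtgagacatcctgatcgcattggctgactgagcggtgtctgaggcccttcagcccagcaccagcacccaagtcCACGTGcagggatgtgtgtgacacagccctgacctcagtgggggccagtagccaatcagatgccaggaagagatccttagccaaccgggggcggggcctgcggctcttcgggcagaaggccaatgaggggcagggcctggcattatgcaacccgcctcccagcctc
Arntl: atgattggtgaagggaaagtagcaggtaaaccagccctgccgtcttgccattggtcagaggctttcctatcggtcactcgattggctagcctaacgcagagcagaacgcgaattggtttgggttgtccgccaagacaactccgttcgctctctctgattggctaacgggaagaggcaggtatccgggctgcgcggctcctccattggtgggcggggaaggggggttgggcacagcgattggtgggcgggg

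RefSeq windows of 300 bases, with 250 before and 50 after the start, were given for 9 of the 10 genes, 13 windows in all. None was given for Per2, which was therefore not searched. Both strands were searched. CACGTG was found in 2 member windows, those of Cry1 and Per1 shown, and in 7.15% of all 32851 windows. CACGTT, which shares 5 letters with it but was counted apart, was found in 3 member windows (Cry1, Cry2 and Nr1d1) and in 4.685% of all windows. TTATGTAA, which the Dbp, Hlf, Tef and Nfil3 proteins bind, stood in the Per3 window alone of the 13, at 2 places, and in 0.938% of all windows. The full cAMP response element TGACGTCA was in 0 member windows and 1.79% of all, while TGACG, which it contains, was in 4 and 20.812%. The nuclear receptor core motif AGGTCA was in 4 member windows (Clock, Arntl, Per1 and Nr1d2) and 16.255% of all. In Arntl it stood at 31 to 36 after the start, in window 2, which is not shown. In the Per1 window shown it was read from the other strand at -137 to -132, and is not in capitals. These are matches of letters, and no binding was measured.

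The deposited intensities had an array median of 37 to 45, and each array correlated with the others at a mean r of 0.978 to 0.981 across probe sets. The log2 3′/5′ ratio of control probe sets, a sign of RNA integrity, ran from 0.0928 to 0.217 in creatine-fed and from 0.133 to 0.236 in untreated mice. Of the member probe sets, 18 were below the array median on no array and 2 (1457740_at of Arntl and 1421036_at of Npas2) were below it on every array. Neuronal markers were high throughout, with a sum of 18702 to 20725 in creatine-fed and 19267 to 21642 in untreated mice. Of the suprachiasmatic markers, 6 of 7 were measured, 1 was higher and 5 were lower in creatine-fed mice, and Six6 and Prok2 were at 20 or less on every array. All 4 oligodendrocyte markers measured were lower in creatine-fed mice, with a sum of 12312 to 14344 against 14020 to 17714 in untreated mice and a median log2 difference of -0.18. The part of such cells in the differences below was not tested, and in whole tissue fewer cells of a type cannot be told apart from less RNA per cell.

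Whether RNA of the loop differed after creatine feeding was asked by setting the 6 creatine-fed mice against the 7 untreated ones. No member passed the test: 0 of 23 probe sets had an adjusted p under 0.05 (limma, Benjamini-Hochberg over 45037 probe sets), where 0.00888% of all probe sets did. The smallest adjusted p of a member was 0.234, for Per3. At an unadjusted p under 0.05 there were 4 member probe sets (17.4%), all lower in creatine-fed mice, against 11.9% of all probe sets in either direction of which 7.7% were lower and 4.17% higher. The 4 belonged to Per3 (1421087_at and 1441445_at), Per2 (1457350_at) and Nr1d2 (1416958_at). In 0 of 23 did the groups not overlap, against 0.56% of all probe sets.

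Means were lower in creatine-fed mice for 14 member probe sets and higher for 9, and the median log2 difference was -0.02, beside -0.03 over all probe sets, of which 57.8% were lower. With arrays centred on their median, 9 were lower and 14 higher, with a median of 0.04. With 1 probe set per gene, the brightest, 5 genes were lower and 5 higher, and 2 of 10 (Per3 and Nr1d2) had an unadjusted p under 0.05, against 11.2% of all genes.

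**Figure D1:**
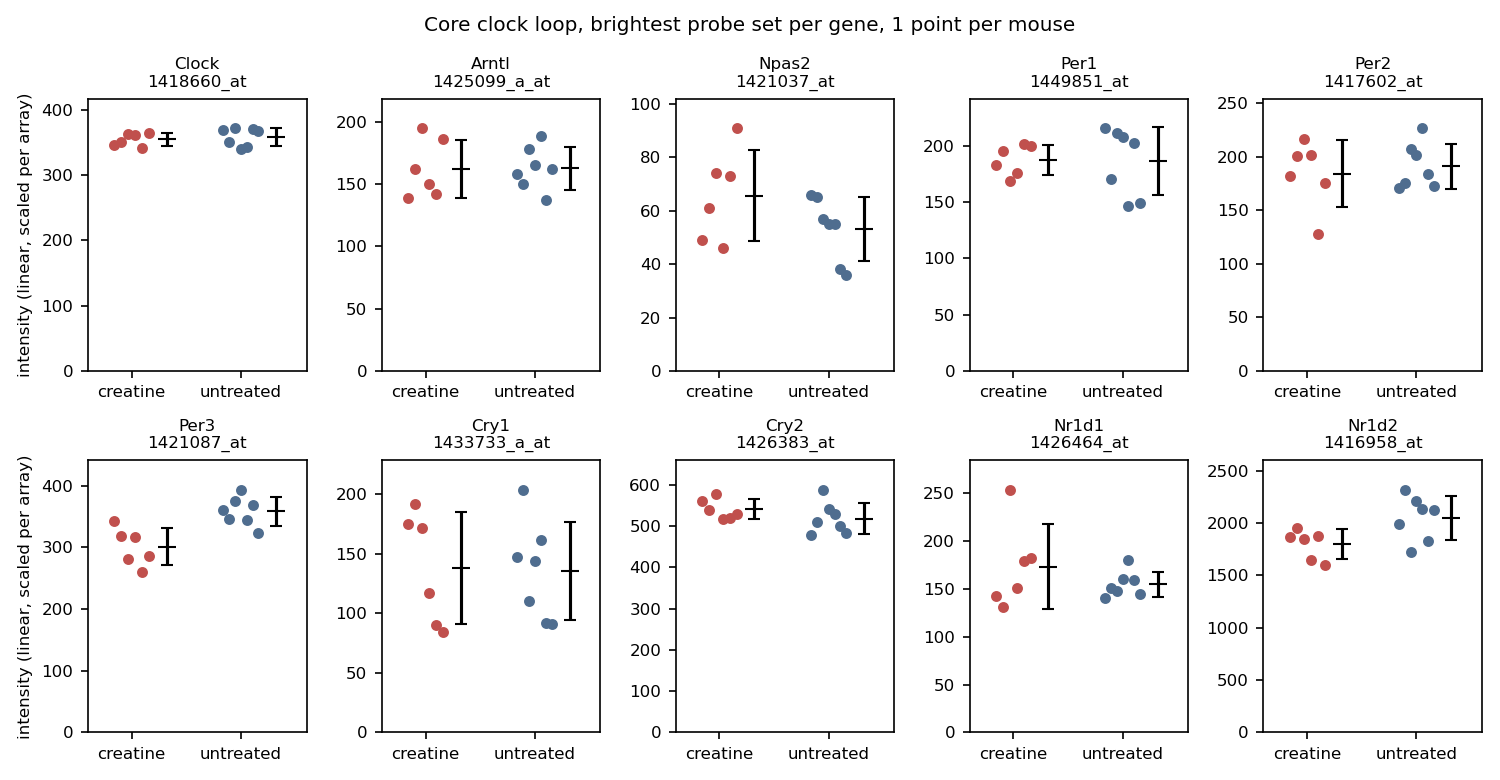
Intensity of the brightest probe set of each of the 10 genes in every mouse, on a linear axis from 0 that differs between panels; points are mice, creatine-fed left of untreated, and bars are the group mean ± SD. Per3 is lower in 5 of 6 creatine-fed mice than in every untreated mouse, Clock and Cry2 are tightly grouped, and Cry1 is widely spread within both groups.

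Clock, the partner of BMAL1, had the smallest SD within groups of the brightest probe sets. At 1418660_at its intensity ran from 342 over a median of 356.5 to 364 in creatine-fed and from 340 over 368 to 372 in untreated mice. The creatine-fed range lay within the untreated one, and the mice differed by no more than 1.09-fold. Means were 355 ± 9.58 (SD, n = 6) and 359 ± 13.96 (SD, n = 7), a log2 difference of -0.02 ± 0.05 (SE) with a 95% interval of -0.13 to 0.10. The 3 further probe sets of Clock differed by -0.04, -0.01 and 0.03.

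Arntl encodes BMAL1, the activator shared by both heterodimers. Its 1425099_a_at read 139, 162, 195, 150, 142 and 186 in creatine-fed mice 1 to 6 and 158, 150, 178, 165, 189, 137 and 162 in untreated mice 1 to 7. The groups overlapped almost wholly, with the highest value in creatine-fed mouse 3 and the lowest in untreated mouse 6. The means of 162 ± 23.4 and 163 ± 17.2 gave a log2 difference of -0.01 (95% interval -0.21 to 0.19), and the sign turned under quantile normalization (0.00) and median centring (0.04). The second probe set, 1457740_at, read 11 to 28 in creatine-fed and 16 to 31 in untreated mice, below the array median, with a difference of -0.24 (limma, unadjusted p = 0.058).

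Npas2, the paralog of Clock that is prominent in forebrain, ranged from 46 over a median of 67 to 91 in creatine-fed mice and from 36 over 55 to 66 in untreated mice at 1421037_at. Creatine-fed mice 3, 5 and 6 stood above every untreated mouse, and untreated mice 6 and 7 below every creatine-fed one. The means were 65.7 ± 17.0 and 53.1 ± 11.9, and the log2 difference of 0.23 ± 0.15 had an interval from -0.08 to 0.55 that includes 0 (adjusted p = 0.564, limma). The other probe set of Npas2 was near the bottom of the scale, at 1 to 17 in creatine-fed and 1 to 6 in untreated mice, and differed by 0.22.

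Per1, a light- and glucocorticoid-inducible repressor, read 169 to 202 (median 189.5) in creatine-fed mice and 147 to 216 (median 203) in untreated mice at 1449851_at, its only probe set. The creatine-fed mice lay inside the untreated range. Means of 188 ± 13.7 and 187 ± 30.2 differed by 0.02 on the log2 scale (95% interval -0.19 to 0.23).

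Per1 was also set beside inducible genes across the 13 mice. Its r was 0.02 with the immediate early gene Fos, 0.26 with the phosphatase gene Dusp1, 0.09 with the kinase gene Sgk1, 0.06 with the glucocorticoid-induced Tsc22d3 and -0.00 with Dbp, and each had an adjusted permutation p of 0.998 over the 5 pairs. With Dbp the groups went opposite ways, at r = -0.75 in creatine-fed and 0.57 in untreated mice, and r was -0.65 without the 2 mice farthest from the median of Per1; the group values were not tested against each other. With Fos, Dusp1 and Tsc22d3, too, r was negative in creatine-fed and positive in untreated mice. Dusp1 averaged 502 ± 73.8 in creatine-fed and 403 ± 52.7 in untreated mice, a log2 difference of 0.30 (adjusted p = 0.290, limma). Tsc22d3 averaged 464 ± 31.4 and 514 ± 36.3, a difference of -0.14, and Fos and Sgk1 differed by 0.14 and 0.00.

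Per2, the repressor whose loss shortens the free-running period in mice, gave unlike readings at its 3 probe sets. At the brightest, 1417602_at, values ran from 128 over a median of 191.5 to 217 in creatine-fed and from 171 over 184 to 227 in untreated mice, and the low value of 128 was creatine-fed mouse 5. The log2 difference was -0.06 (95% interval -0.29 to 0.17), and it was 0.03 without that mouse. At 1457350_at, values ran from 37 over 50 to 59 in creatine-fed and from 54 over 65 to 72 in untreated mice, with 4 of 6 creatine-fed mice below every untreated one. Means of 49.7 ± 8.07 and 64 ± 7.33 gave -0.29 ± 0.09 (unadjusted p = 0.0068, adjusted p = 0.251, limma). The 1417603_at probe set differed by 0.05, and across mice the brightest correlated with 1457350_at at r = 0.19 and with 1417603_at at 0.12.

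Per3, the Period gene that is least needed for rhythm in mice, had the lowest p of the loop. At 1421087_at the creatine-fed mice read 343, 318, 281, 317, 261 and 286, and the untreated mice read 361, 346, 376, 394, 344, 369 and 323. All creatine-fed mice but mouse 1 were below every untreated mouse. The means were 301 ± 30.1 and 359 ± 23.5, a log2 difference of -0.25 ± 0.07 with an interval of -0.40 to -0.09 (unadjusted p = 0.00491, adjusted p = 0.234, limma). It stayed between -0.28 and -0.21 when each mouse was left out, and an exact rank-sum test over all 1716 splits gave an unadjusted p of 0.00233 (adjusted p = 0.213). The smallest adjusted p of that rank-sum test over all probe sets was 0.208.

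The 6 probe sets of Per3 gave further readings of the gene, in the same RNA. At 1441445_at, creatine-fed mice ran from 81 over a median of 97 to 138 and untreated mice from 115 over 133 to 163, and 4 of 6 creatine-fed mice were below every untreated one. That difference was -0.36 ± 0.13 (adjusted p = 0.283, limma). The others differed by -0.22 (1442243_at), -0.19 (1460662_at), -0.09 (1458176_at) and 0.14 (1421086_at), so that 5 of 6 were lower in creatine-fed mice, and the mean of all probe sets differed by -0.16. Across mice Per3 at 1421087_at correlated with the 3′/5′ ratio at r = 0.57 (permutation p = 0.0403, adjusted p = 0.21 over 20 relations, rho 0.61). With that ratio as a covariate its difference was -0.21.

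**Figure D2:**
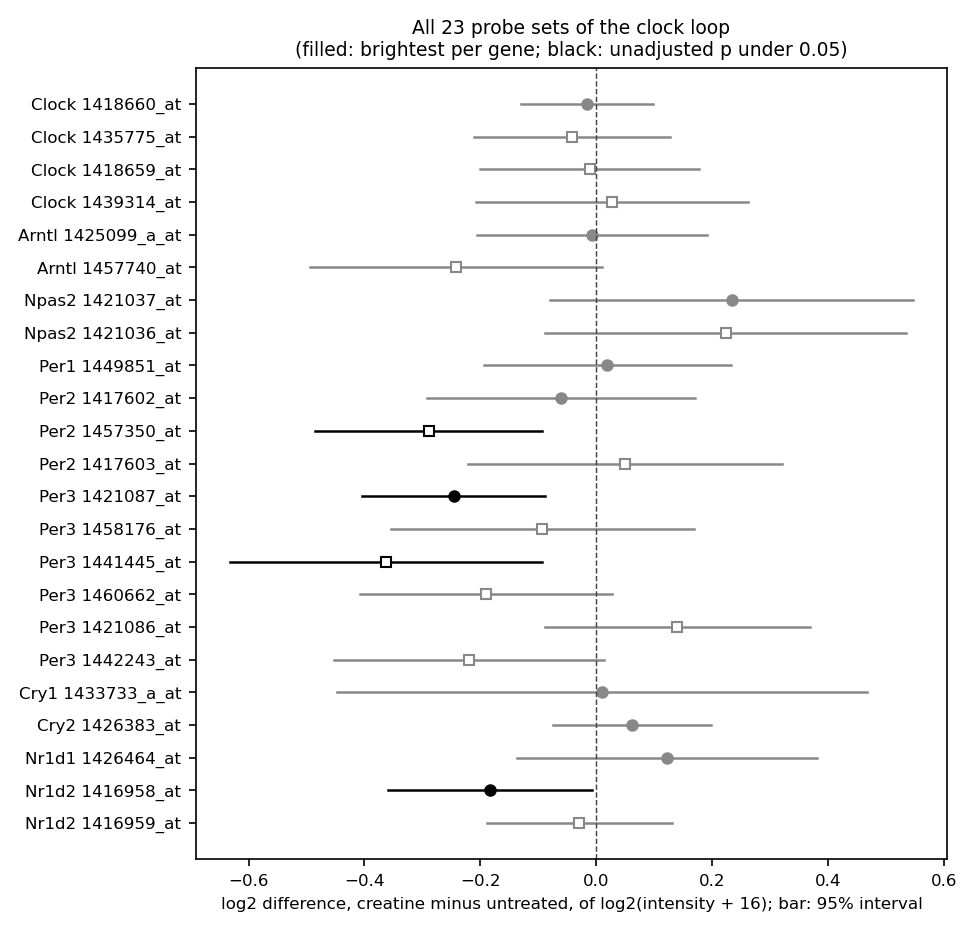
Log2 difference, creatine-fed minus untreated, for each of the 23 member probe sets with its 95% interval from limma; circles are the brightest probe set of a gene, squares the others, black marks an unadjusted p under 0.05, and points left of 0 are lower in creatine-fed mice. Intervals of 2 Per3, 1 Per2 and 1 Nr1d2 probe set exclude 0, all on the left, before adjustment.

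Cry1, a cryptochrome that represses BMAL1 and CLOCK directly, had the largest SD within groups of the brightest probe sets. Its only probe set, 1433733_a_at, read 175, 192, 172, 117, 90 and 84 in creatine-fed mice and 147, 204, 110, 144, 162, 92 and 91 in untreated mice. Low and high mice occurred in both groups, with a 2.43-fold span over the 13. The means of 138 ± 47.1 and 136 ± 41.1 differed by 0.01, with a 95% interval from -0.45 to 0.47, the widest among the brightest probe sets.

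Cry2, its paralog, read 518 to 577 (median 534.5) in creatine-fed and 478 to 589 (median 511) in untreated mice at 1426383_at. The creatine-fed mice lay inside the untreated range, and the span over all mice was 1.23-fold. Means of 541 ± 23.7 and 519 ± 38.5 differed by 0.06 (95% interval -0.08 to 0.20).

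Nr1d1 encodes REV-ERB alpha, the main repressor of Arntl. At 1426464_at it read 143, 131, 254, 151, 179 and 182 in creatine-fed mice and 141, 151, 148, 160, 180, 159 and 145 in untreated mice. Creatine-fed mouse 3 stood above all others, with the next at 182. The means of 173 ± 44.3 and 155 ± 13.1 gave a difference of 0.12 ± 0.12 (95% interval -0.14 to 0.38), which was 0.01 without mouse 3. That mouse also had the lowest 3′/5′ ratio, 0.0928, and Nr1d1 correlated with this ratio at r = -0.64 (permutation p = 0.0167, adjusted p = 0.167, rho -0.30); with it as a covariate the difference was 0.05.

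Nr1d2 encodes REV-ERB beta, the partly redundant second receptor. At 1416958_at it read 1869, 1953, 1844, 1645, 1881 and 1599 in creatine-fed mice and 1995, 2320, 1726, 2206, 2135, 1833 and 2122 in untreated mice. The 5 highest readings were untreated, and creatine-fed mice 4 and 6 were below every untreated mouse. Means of 1798.5 ± 142 and 2048 ± 210 differed by -0.18 ± 0.08, with an interval of -0.36 to -0.01 (unadjusted p = 0.042, adjusted p = 0.398, limma). The exact rank-sum p was 0.0734 unadjusted, and the second probe set, 1416959_at, differed by -0.03. Nr1d2 also correlated with the array median across mice, at r = 0.69 (permutation p = 0.00747, adjusted p = 0.149, rho 0.59), and differed by -0.13 with arrays centred on it.

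The spread between mice of one group was compared over the 10 genes. The within-group SD of the brightest probe sets on the log2 scale had a median of 0.17, from 0.0473 for Clock and 0.0855 for Cry2 to 0.424 for Cry1. Over all probe sets the median was 0.223, and over the 22519 brighter ones it was 0.157. After Cry1 came Npas2 at 0.281 and Nr1d1 at 0.226.

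In rhythmic tissues Arntl RNA peaks when RNA of Nr1d1 and the Per genes is low, which need not hold for every pair between the arms. The 21 pairs of a positive-arm with a negative-arm gene were correlated across the 13 mice. Of these, 10 pairs had a negative and 11 a positive r, with a median of 0.08 and a range of -0.50 to 0.57, and 0 pairs passed at an adjusted permutation p under 0.05 (smallest 0.471). At an unadjusted p under 0.05 there were 2 pairs by r, both positive, and 0 by rho. The count and sign of such pairs changed with the setting. The mean of all probe sets of a gene gave 1 pair, a negative one, and so did deviations from the group means. Quantile normalization gave 2, of which 0 were negative, and arrays centred on their median gave 4, of which 1 was negative. Within creatine-fed mice 11 of 21 were negative and within untreated mice 9, and the sign was the same in both groups for 11 pairs.

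Both pairs with an unadjusted p under 0.05 held Arntl. Arntl and Per2 had r = 0.57 (permutation p = 0.0348, adjusted p = 0.471) and rho = 0.55 (p = 0.0542). The r was 0.50 within creatine-fed and 0.74 within untreated mice, and 0.56 without the 2 mice farthest from the median of Arntl. Arntl and Nr1d1 had r = 0.54 (permutation p = 0.0449, adjusted p = 0.471) and rho = 0.44 (p = 0.137), with 0.68 within creatine-fed and 0.38 within untreated mice. Without the same 2 mice, creatine-fed mouse 3 and untreated mouse 6, that r was 0.37. On deviations from the group means the permutation p was 0.0559 for Arntl with Per2 (r = 0.58) and 0.0737 for Arntl with Nr1d1 (r = 0.57). Arntl itself correlated with the 3′/5′ ratio at r = -0.56 (permutation p = 0.0442, adjusted p = 0.21).

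On the negative side, Npas2 and Per3 had r = -0.50 (permutation p = 0.0809) and rho = -0.41. That relation was -0.77 within creatine-fed but 0.31 within untreated mice, and the 2 values were not tested against each other. Clock and Nr1d2 had r = -0.48 (permutation p = 0.0999) and rho = -0.51 (p = 0.0808). Here both groups gave the same sign, -0.71 in creatine-fed (exact p = 0.154) and -0.75 in untreated mice (exact p = 0.0669). On deviations from the group means the r was -0.73, with an unadjusted permutation p of 0.0109 and 0.228 adjusted over the 21 pairs; without the 2 mice farthest from the median of Clock the plain r was -0.44 (permutation p = 0.173). Clock spans only 1.09-fold over these mice.

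**Figure D3:**
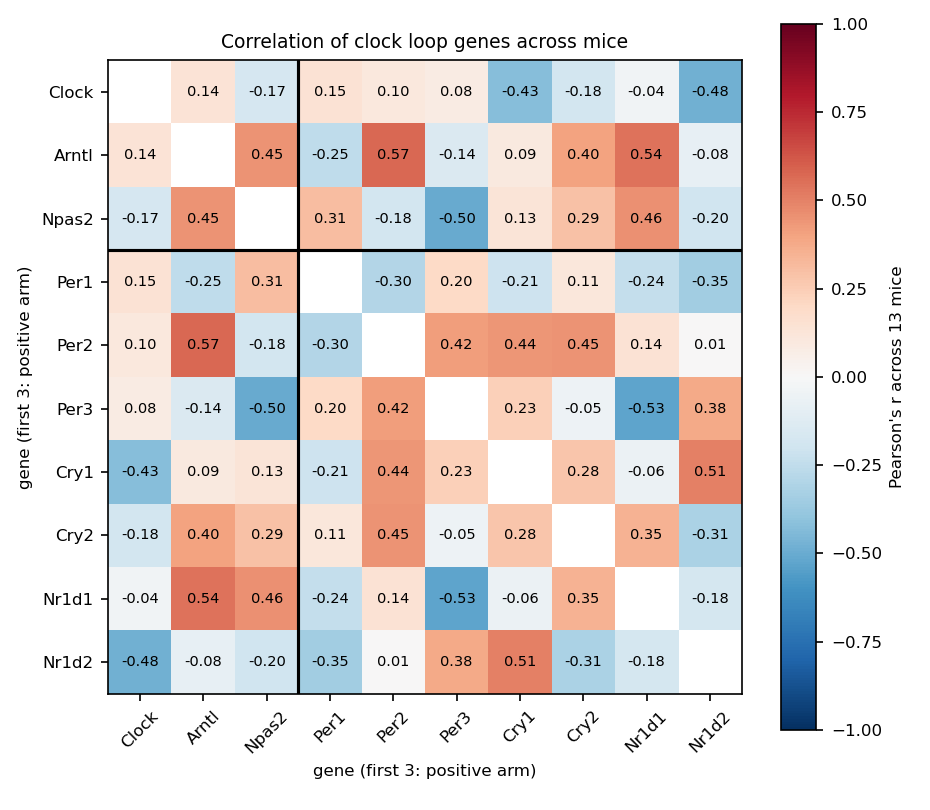
Pearson's r across the 13 mice for every pair of the 10 genes, brightest probe sets, red for positive and blue for negative on a scale from -1 to 1; lines separate the positive arm (Clock, Arntl, Npas2) from the negative arm. The block of opposite-arm pairs holds 10 negative and 11 positive values and is not uniformly negative.

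Pairs within one arm were correlated in the same way. Of the 24 same-arm pairs, 14 had a positive and 10 a negative r, with a median of 0.13 and a range of -0.53 (Per3 and Nr1d1) to 0.51 (Cry1 and Nr1d2), and 0 passed by r after adjustment (smallest adjusted permutation p 0.596) or at an unadjusted p under 0.05. By rho, Per2 and Cry2 had the lowest unadjusted permutation p, 0.0218, with rho = 0.63 and r = 0.45. Cry1 and Nr1d2 had r = 0.64 on deviations from the group means (unadjusted permutation p = 0.0265, adjusted p = 0.331).

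Each member was also set beside markers of cerebellar granule cells, a relation examined after values were seen; by rho, Cry1 and Nr1d2 had the smallest p. The summed intensity of the 6 markers (Gabra6, Neurod1, Pax6, Cbln1, Cbln3 and Zic1, 6 of 6 measured) ran from 3053 to 8680 in creatine-fed and from 1088 to 11360 in untreated mice, and 4 of them were higher and 2 lower in creatine-fed mice, with a median log2 difference of 0.07. Nr1d2 correlated with this sum at r = 0.62 (permutation p = 0.0155, adjusted p = 0.155 over 10 genes) and rho = 0.61. It was 0.86 in creatine-fed (exact p = 0.0486) and 0.82 in untreated mice (exact p = 0.00476), and was 0.69 without creatine-fed mouse 4 and untreated mouse 3, the 2 farthest from the median.

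Cry1 had r = 0.45 with the cerebellar sum (permutation p = 0.111, adjusted p = 0.37) and rho = 0.74 (p = 0.00549, adjusted p = 0.0549). Within the groups its r was 0.62 in creatine-fed (exact p = 0.178) and 0.41 in untreated mice (exact p = 0.392). Without the same 2 mice its r was 0.76 (permutation p = 0.00301, unadjusted). Clock had r = -0.45 (permutation p = 0.105, adjusted p = 0.37), and the other 7 members had larger p values by r. With the cerebellar sum as a covariate, Nr1d2 differed between the groups by -0.20 (unadjusted p = 0.00736, adjusted p = 0.224, limma), beside -0.18 without it. The r of Cry1 with Nr1d2 was 0.52 on residuals from group and sum together, beside 0.64 on deviations from the group means alone. In the same order, the r of Cry1 was 0.64 beside 0.45 with Per2, 0.63 beside 0.29 with Cry2 and 0.53 beside 0.37 with Per3. It was -0.09 beside -0.21 with Per1 and -0.11 beside -0.06 with Nr1d1. For Clock with Nr1d2 the r was -0.71 beside -0.73 (adjusted permutation p = 0.28 on the residuals, over the 21 pairs).

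**Figure D4:**
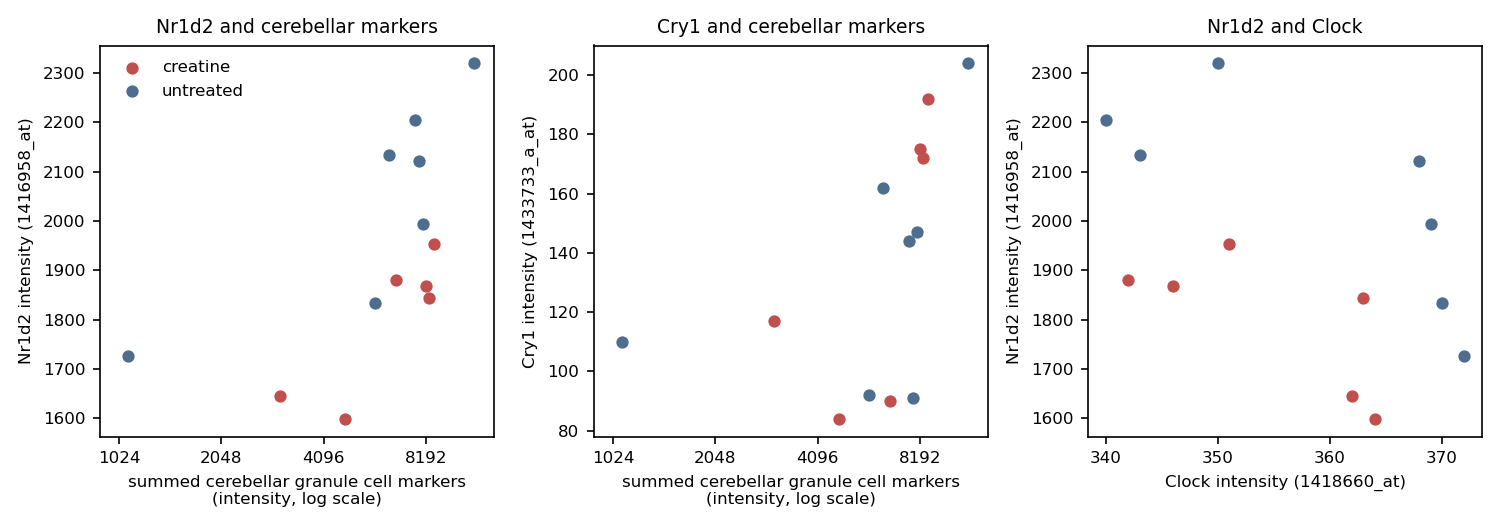
Intensity of Nr1d2 and of Cry1 against the summed intensity of 6 cerebellar granule cell markers (log axis), and of Nr1d2 against Clock, 1 point per mouse, creatine-fed in red and untreated in blue; vertical axes do not start at 0. Nr1d2 is higher where the marker sum is higher in each group (r = 0.86 in creatine-fed, 0.82 in untreated mice) and lower where Clock is higher (r = -0.71 and -0.75).

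How far the probe sets of a gene ranked the mice alike was checked in 13 pairs, each the brightest probe set with another of its gene. The r was positive in 12 of 13, with a median of 0.26, and 2 passed at an adjusted permutation p under 0.05, both of Per3. Per3 at 1421087_at and 1441445_at had r = 0.90 (adjusted p = 0.00078, permutation) and rho = 0.84, with 0.94 within creatine-fed and 0.61 within untreated mice. With 1442243_at it had r = 0.76 (adjusted p = 0.0151, permutation), 0.90 within creatine-fed and 0.24 within untreated mice, and 0.45 without the 2 mice farthest from the median. The Per3 probe set 1421086_at had the lowest value, -0.25. The pair of Npas2 had r = 0.63 and that of Arntl 0.54, and those of Clock, Per2 and Nr1d2 ranged from 0.09 to 0.41.

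Genes that act beside or below the loop were read from a list of 26 genes, of which 24 were measured. None of the 24 passed (limma, brightest probe set), where 0.0055% of all genes' brightest probe sets did. At these brightest probe sets 4 had an unadjusted p under 0.05 (16.7%), all higher in creatine-fed mice, against 11.2% of all genes. Means were higher for 14 and lower for 10, with a median log2 difference of 0.02, beside -0.03 over all genes; with arrays centred on their median 19 were higher and 5 lower.

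The 4 were the D-box factor Hlf, the deubiquitinase Usp2, the receptor Rorb and the RNA-binding Per cofactor Nono. At the brightest probe sets Usp2 alone had groups that did not overlap (0.649% of all genes); it averaged 503.5 ± 30.8 in creatine-fed and 422 ± 19.9 in untreated mice, a log2 difference of 0.25 (adjusted p = 0.173, limma). Its second probe set differed by 0.06 with overlapping groups, at 436 ± 48.8 and 417 ± 19.0. Among the dimmer probe sets of the 24 genes, 1 of Csnk1d also had groups that did not overlap, with creatine-fed mice higher by 0.20. Over all probe sets, bright or dim, the share without overlap was 0.56%. The 6 probe sets of Gsk3b went both ways, with 4 lower and 2 higher in creatine-fed mice. The extremes, both at dimmer probe sets, were -0.40 (unadjusted p = 0.00112, adjusted p = 0.171, limma) and 0.67 (unadjusted p = 0.00485, adjusted p = 0.234, limma). Hlf differed by 0.31 (adjusted p = 0.152, limma) and passed in 2 alternative fits, among the 22519 brighter probe sets and with a trended and robust variance. Rorb averaged 245 ± 27.0 and 206 ± 23.3, a difference of 0.24, and its 2 dimmer probe sets were also higher. Nono was higher by 0.14 at its brightest probe set, but of its 4 probe sets 2 were lower, 1 of them with a difference of -0.30 (unadjusted p = 0.0102, adjusted p = 0.271, limma).

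Among the other D-box factors, Dbp, a direct E-box target, averaged 1205.5 ± 96.1 in creatine-fed and 1095 ± 32.6 in untreated mice, a difference of 0.13 (adjusted p = 0.422, limma). Tef differed by -0.04 and the D-box repressor Nfil3 by 0.23. The E-box repressors Bhlhe40, Bhlhe41 and Ciart differed by 0.04, 0.35 and -0.06, with Bhlhe41 at 55.8 ± 20.2 and 39.4 ± 12.2. The activator of Arntl, Rora, differed by -0.19 at its brightest probe set, while its 9 probe sets, 3 lower and 6 higher, ran from -0.19 to 0.69. The PER kinase gene Csnk1d differed by 0.14 and the deacetylase gene Sirt1 by -0.11. None of these passed.

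Genes most like 3 members across the 13 mice were sought on deviations from the group means, among 11141 non-member genes whose brightest probe set was in the upper 50% by mean; the extremes of so many values are given as a description. Arntl was most like Tmem196 (r = 0.87), Dok4 and Tmem250-ps (0.83 each) and most opposite to Azin1 (-0.91), Chmp2a (-0.89) and Ipmk (-0.85). Per2 was most like Arglu1 (0.89), Smad4 (0.84) and Cyrib (0.82) and most opposite to Mxra8 (-0.87), Cd2ap and Gatd3a (-0.81 each). Nr1d1 was most like Dele1 (0.86), Rxrg (0.82) and Crk (0.81) and most opposite to Ccdc184 (-0.92), Aifm2 (-0.90) and Fam98a (-0.89). Members were not among the candidates, and none of these 18 genes was in the list of other clock genes.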

How the data were processed

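Total RNA of 13 brain hemispheres was measured on expression arrays. The authors' deposited table gives 1 linear intensity per probe set and array, in whole numbers; the submitters' processing notes name RMA, which returns log2 values, yet on every array the mean without the top and bottom 2% of probe sets was 150.05, as after scaling to a common target. The scaling is not given in the sources used here. Symbols came from the platform's annotation, updated by Entrez ID; control probe sets (64 of 45101) were left out.

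An offset of 16 was added to each intensity and log2 taken. All 45037 probe sets were fitted with limma 3.58.1 in R 4.3.3, without covariates, 2-sided, adjusted by Benjamini-Hochberg, threshold 0.05. Correlations used each gene's brightest probe set and 2-sided permutation p values (100000 resamples; exact within groups), adjusted within each family (21 opposite-arm, 24 same-arm, 13 probe-set, 10 cerebellar, 20 quality and 5 Per1 relations). No probe set's level was compared with another's. The labels call the arrays biological replicates and name no litter or batch; 6 and 7 arrays per group limit precision throughout.

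The members and lists were chosen with earlier results of these data known. Named genes are all members with every probe set, 9 other clock genes and up to 4 more with the smallest p. Gsk3b was added for its dimmer probe sets. Also named are 4 inducible genes and the 3 most like and 3 most opposite genes of Arntl, Per2 and Nr1d1. Alternatives were other offsets, scalings, covariates and weights, the 22519 brighter probe sets, a replicate block, an exact rank-sum test, leaving out each mouse, and, added after seeing the data, cerebellar markers. The fit was tested on simulated data (45037 probe sets, 6 against 7, independent normal noise): 40% of 100 planted log2 changes of 0.5 and 84% of 100 of 1 were recovered, and 4.62% of calls were false. The members' differences ran from -0.36 to 0.23, and recovery at such sizes was not simulated. Python 3.11.15, scipy 1.17.1 and matplotlib 3.10.9 were used.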

Additional observations from a re-analysis of the deposited data

Results flagged for a closer look

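One reading stood apart within its group. Clock at its probe set 1418659_at read 385 in creatine-fed mouse 3, against 272 to 305 in the other 5 creatine-fed mice; the gap to the nearest mouse was 0.708 of the group's range, above Dixon's critical value of 0.625 for 6 samples. The brightest Clock probe set, 1418660_at, read 363 in that mouse, inside the range of the others. Among 46 groups of values examined this was the only one so marked, and chance marks about 1 in 20.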

How the results depend on the processing

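The count of member probe sets that passed was 0 under all 25 alternatives. At an unadjusted p under 0.05 there were 3 to 5 over the 24 alternatives that tested single probe sets, beside 4 as reported. Over all probe sets the count that passed ran from 0 to 161, beside 4. It was 138 among the 22519 brighter probe sets, 161 with a trended and robust variance, 36 with an offset of 50 and 13 with array weights. With quantile normalization it was 2. It was 0 with an offset of 1, with the exact rank-sum test (4760 at an unadjusted p under 0.05) and without creatine-fed replicate 3 or 5 or untreated replicate 2, 3, 4, 5 or 6. The rank-sum p can take few values over 1716 splits, and its smallest adjusted p over all probe sets was 0.208. Its count of 0 therefore cannot decide whether members differ. Of the other clock genes 1, Hlf, passed among the brighter probe sets (adjusted p = 0.049, limma) and with the trended and robust variance (adjusted p = 0.0245), and 0 under the other settings run.

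Of 240 alternative values of the members' differences, 21 turned sign, in Clock, Arntl, Per1, Per2 and Cry1, none of which passed. The smallest adjusted p of any member gene was 0.0999 (limma), for Per3 among the brighter probe sets, and its largest was 0.401. With arrays centred on their median the log2 difference was 0.036 for Clock and 0.0443 for Arntl, and with quantile normalization it was 0.0048 for Arntl. With the cerebellar covariate it was -0.0119 for Cry1. Leaving out 1 mouse gave -0.058 to 0.031 for Arntl, -0.0304 to 0.0545 for Per1, -0.108 to 0.0314 for Per2 and -0.0884 to 0.123 for Cry1. The cause was not tested.

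With the replicate number as a block, Per1 was at -0.0274 and Cry1 at -0.0667, and 0 probe sets passed over all and 0 among the members. Both differences equal those without untreated mouse 7, which has no creatine-fed mouse of its number. Their sign turns are therefore counted under both settings. Correlations of same-numbered mice ran from -0.055 to 0.146, and 1 creatine-fed mouse correlated best with the untreated mouse of its own number. The labels give no pairing by number, and these values cannot tell whether same-numbered mice shared a batch. Opposite-arm pairs that passed numbered 0 under all 21 alternatives, with a smallest adjusted permutation p between 0.143 and 0.755.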

Other observations

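Cry1 was added to the search for like genes after its wide spread had been seen. On deviations from the group means it was most like Gm3764 (r = 0.93), Coa7 (0.89) and Ndufa5 (0.89) and most opposite to Insyn2b (-0.93), Tpgs2 (-0.92) and Slc39a11 (-0.91) across the 13 mice. Among the other clock genes Nfil3, the D-box repressor, had r = 0.78 with Cry1, which ranked 73rd of 11141 genes. Timeless, whose namesake in flies is the partner of the PER protein, had r = -0.73 with Arntl and ranked 11106th of 11141. These are extremes picked from many values and carry no test.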
